A study of Mus musculus with 14 samples.

Results

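The complement system was examined in liver tissue of 14 male C57BL/6 mice through 33 genes that encode its components, regulators and receptors, of which 31 had a probe set annotated to that gene alone. They were taken from 19938 genes measured in this way, each by the probe set with the highest mean over the 14 arrays, and every one of the 31 had a single such probe set. The expression of C3 and Cfd, the genes of the central component and of factor D, was not analysed here. All 14 mice were 24 weeks old and had received high-fat feed for 20 weeks, so that diet was shared by both groups and no chow-fed liver entered the comparison. A group of 7 mice received human bone marrow-derived mesenchymal stem cells, which carried a GFP label, by tail-vein injection (HFM). The other 7 received saline (HFS), which the study's methods also call PBS. The study treated a further mouse in each group, whose sample was damaged in transit and has no array here. Livers were taken 24 h later and each was hybridized to 1 Affymetrix mouse gene array with no pooling of animals. The injected cells came from a single human donor and were given to mice, which limits the HFM group as a model. The purpose of the comparison was to find how the host liver responds to a single dose of these cells in a setting of diet-induced metabolic inflammation.

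Complement is a cascade of plasma proteins that marks and punctures targets. The classical pathway starts when C1q binds antibody or a damaged surface and activates the proteases C1r and C1s, the lectin pathway starts when mannose-binding lectins, ficolins or collectins bind sugars and activate the MASP proteases, and both then cleave C4 and C2. The alternative pathway is driven by factor B and stabilized by properdin. All routes cleave C3 and then C5, which releases small peptides that act on receptors of leukocytes, and C5b then assembles with C6, C7, C8 and C9 into the membrane attack complex. Hepatocytes secrete most of these proteins into plasma, whereas C1q is produced chiefly by macrophages, including the Kupffer cells of the liver, and by dendritic cells. The 31 genes were therefore read in 4 groups by their known main source, namely 3 C1q chains, 4 other myeloid genes, 19 hepatocyte components and 5 genes of other or mixed sources.

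The promoters of C1qb, C1qc and C9 are shown because their genes stood on the macrophage side (C1qb, C1qc) and the hepatocyte side (C9) of the comparison. Each is the 250 bases before the transcription start, read from RefSeq on build GRCm38.p6 and printed 5′ to 3′ on the strand of the gene. The windows are chr4:136886201-136886450 on the minus strand for C1qb, chr4:136892915-136893164 on the minus strand for C1qc and chr15:6445096-6445345 on the plus strand for C9. Capitals mark AGGAAGT, the core bound by ETS factors such as PU.1, which lies on the opposite strand in both C1q windows and so reads ACTTCCT, and in C9 a match to TTGCNNAA, a C/EBP-like motif.
C1qb: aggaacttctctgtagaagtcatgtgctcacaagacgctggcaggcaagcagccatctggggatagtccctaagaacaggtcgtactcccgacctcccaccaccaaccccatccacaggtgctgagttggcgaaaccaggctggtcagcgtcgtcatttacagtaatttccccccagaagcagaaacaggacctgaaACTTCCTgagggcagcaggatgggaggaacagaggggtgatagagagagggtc
C1qc: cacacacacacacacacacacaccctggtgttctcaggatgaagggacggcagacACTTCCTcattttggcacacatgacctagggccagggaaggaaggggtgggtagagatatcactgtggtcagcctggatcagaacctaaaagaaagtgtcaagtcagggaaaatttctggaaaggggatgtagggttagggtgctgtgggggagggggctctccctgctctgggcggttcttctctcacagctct
C9: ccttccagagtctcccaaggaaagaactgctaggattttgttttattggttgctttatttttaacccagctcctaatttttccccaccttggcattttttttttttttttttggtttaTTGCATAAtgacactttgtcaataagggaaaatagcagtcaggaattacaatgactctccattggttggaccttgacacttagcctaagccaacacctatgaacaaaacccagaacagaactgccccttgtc
The match began 53 bases before the start of C1qb, 195 bases before that of C1qc and 132 bases before that of C9. AGGAAGT was found on either strand in 5 of 26 promoters of 25 complement genes (C1qb, C1qc, C5ar1, Fcna and Masp2) and in 7.69% of 32851 promoters of the same length. TTGCNNAA was found in C3 and C9 and in 9.56% of all promoters. GTTAAT, part of the site of the hepatocyte factor HNF1, was found in 8 of the 26 (C1ra, C4bp, C7, C8a, C8b, Cfp, Hc and Vtn) against 6.43% of all, and TTCNNNGAA, a STAT motif, in 4 (C7, C8a, Colec11 and Masp2) against 7.02%. The 4 motifs were searched on both strands and counted separately where they overlapped, and a match describes letters in a window.

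Of the 31 genes, 25 had a higher mean in HFM than in HFS livers and 6 a lower one, with a median difference of 0.14 on the log2 scale. Over all 23410 probe sets tested, 51.4% had a higher mean in HFM and the median difference was 0.00. None of the 31 passed a Benjamini-Hochberg adjusted p of 0.05 in limma, where their adjusted p values ran from 0.714 to 0.996, and 0 of all probe sets passed it (0% of those tested, smallest adjusted p = 0.305). At an unadjusted limma p under 0.05, 6 genes were higher in HFM livers (C1qb, C2, C4b, C9, Clu and Colec11), which is 19.4% of the 31, against a background of 3.57% of all probe sets. None of the 31 was lower at that threshold, against a background of 2.9%. Only 3 of the 31 lay below the median level of the tested probe sets. Among the 11705 probe sets brighter than that median, fitted alone, the median difference was 0.02. At the same threshold 4.55% of these were higher and 1.85% lower. By the exact permutation test over mice, 4 of the 31 were higher at p under 0.05 (C2, C4b, Clu and Colec11), against 3.41% of all probe sets. The study's methods combined a p below 0.01 with a Bonferroni correction. They also required a change of 1.2-fold or more, except for data sent to pathway software. The p and fold criteria, applied to the unadjusted limma p without the correction, left C2 and C4b. Of all probe sets these criteria called 0.453% higher and 0.243% lower. With Bonferroni adjustment over all probe sets 0 of the 31 passed 0.05. The 2 became 0 under quantile normalization, in the unmoderated test, with the macrophage marker mean as a covariate, and without HFM mouse 2, 3 or 4 or HFS mouse 3, 4 or 7. They became 1 with all probe sets in the fit, 4 without HFM mouse 5 and 5 without HFS mouse 5. Without the fold criterion Clu and Colec11 passed as well, and the share of all probe sets passing was not counted there. The study's own lists of changed genes held C1qa, C2 and a joint entry for C4a and C4b, but not Clu or Colec11. They were drawn from these same mice, so the calls of C2 and C4b are not independent evidence. C1qa was not called here, with an unadjusted limma p of 0.0775. No gene of the 31 had every HFM liver above every HFS liver, which held for 0.0256% of all probe sets. The count of genes higher at an unadjusted p under 0.05 was 11 without HFS mouse 5, against 3.54% of all probe sets in that fit. It was 10 without HFM mouse 1 (against 3.49%) and 5 to 9 without any other single mouse (against 2.49% to 5.4%).

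**Figure D1:**
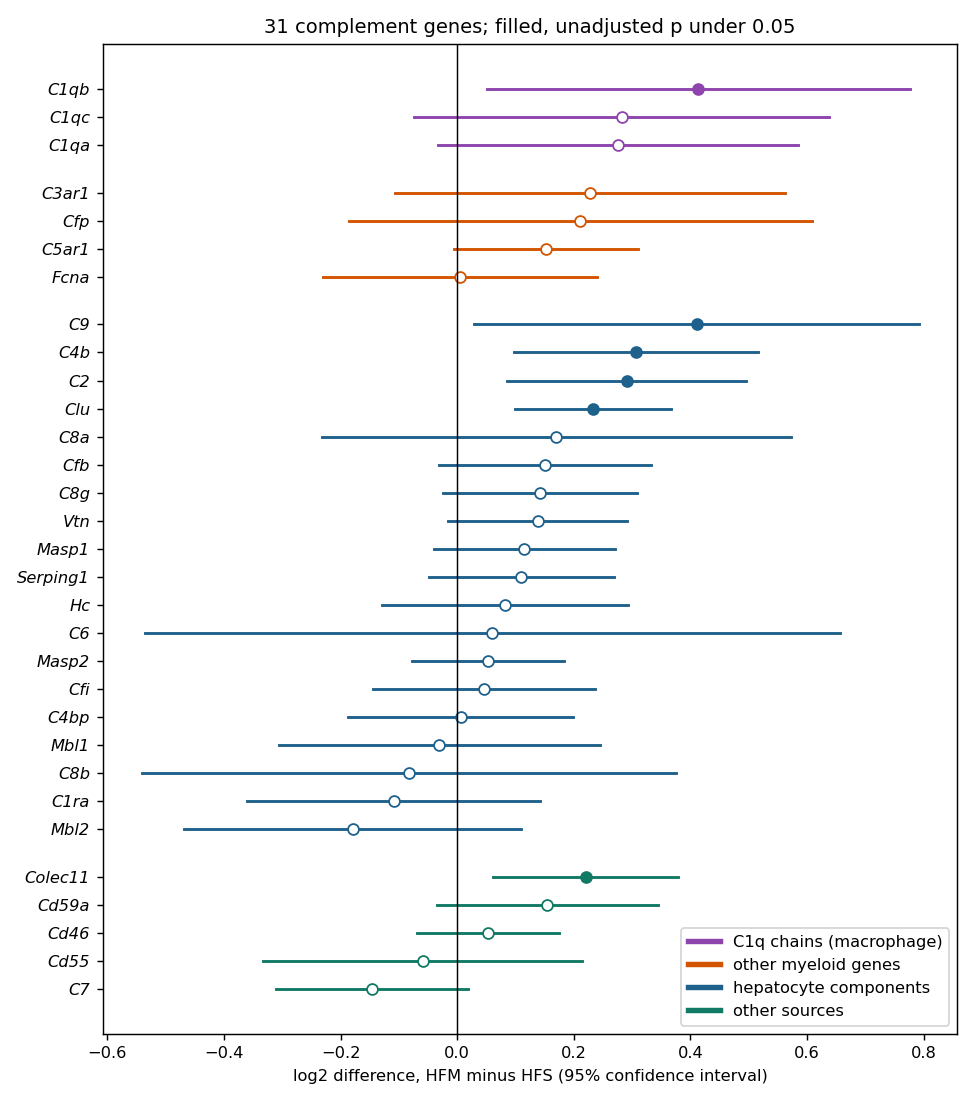
Difference of HFM minus HFS livers for each of the 31 complement genes on the log2 scale (horizontal axis), with 95% confidence intervals from limma as bars, ordered within the groups by main source. The intervals of C1qb, C2, C4b, C9, Clu and Colec11 lie above 0 and no interval lies below 0.

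The C1q chains, whose 3 genes lie next to each other and whose products join into the recognition molecule of the classical pathway, were each higher on average in HFM livers, and only C1qb had an unadjusted p under 0.05. The level of C1qb ran from 7.28 to 8.38 log2 units with a median of 7.74 in HFM livers and from 7.00 to 8.06 with a median of 7.27 in HFS livers. The groups overlapped, since 6 of 7 HFM livers lay above the HFS mean but only 2 lay above every HFS liver. The means were 7.81 ± 0.39 and 7.40 ± 0.38 (SD, n = 7 each). This was a difference of 0.41 on the log2 scale (SE 0.17, 95% interval 0.05 to 0.78), or 1.33-fold, with an unadjusted limma p of 0.0277 and an adjusted p of 0.768, and the exact permutation test gave p = 0.0711. C1qa ran from 7.00 to 7.83 (median 7.28) in HFM livers and from 6.78 to 7.66 (median 6.97) in HFS livers. Its difference was 0.28 (SE 0.15, interval -0.03 to 0.58, exact permutation p = 0.131), and 5 HFM livers lay above the HFS mean. C1qc ran from 6.74 to 7.79 (median 7.05) in HFM and from 6.54 to 7.43 (median 6.72) in HFS livers. Its difference was 0.28 (SE 0.17, interval -0.07 to 0.64, exact permutation p = 0.184). HFM mouse 2 had the highest value of all 14 mice for each of the 3 chains. Leaving out 1 mouse decided the call for these genes. Without HFM mouse 2, HFM mouse 6, HFS mouse 4 or HFS mouse 7 the unadjusted limma p of C1qb was 0.0721, 0.0683, 0.0642 and 0.0606. Without HFS mouse 5 or HFS mouse 6 that of C1qa was 0.0130 and 0.0447 and that of C1qc was 0.0357 and 0.0445, and that of C1qa was 0.0378 without HFM mouse 5 and 0.0435 without HFM mouse 7. These were the only fits under 0.05 of 14 without 1 mouse, 4 for C1qa and 2 for C1qc.

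**Figure D2:**
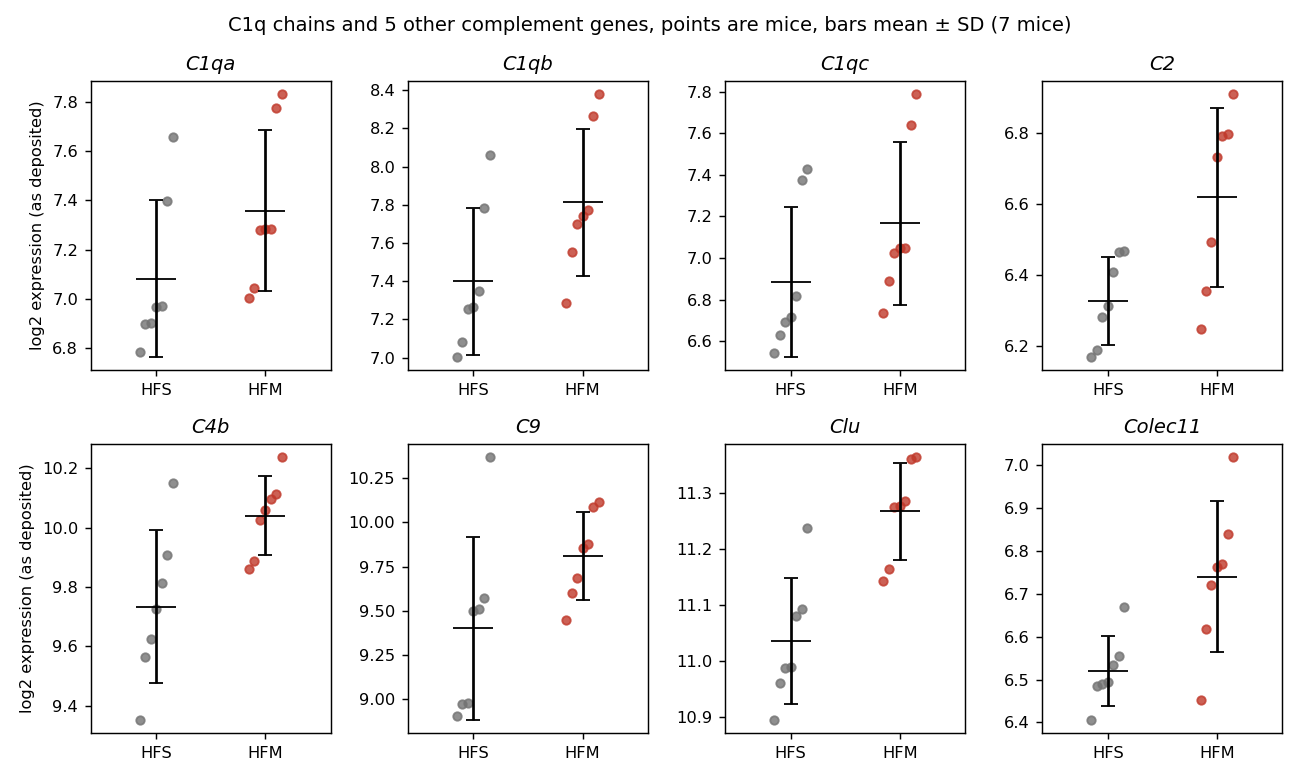
Log2 expression of 8 complement genes (vertical axes) in each of 7 HFS and 7 HFM livers (points), with group means and SD as horizontal lines and bars. The groups overlap for every gene, and the HFM mean is the higher one in each panel.

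Markers of macrophages moved with the C1q chains. All 16 listed macrophage markers were measured, and 15 had a higher mean in HFM livers (93.8%, against 51.4% of all probe sets). At an unadjusted limma p under 0.05, 4 were higher (25%, against 3.57% of all probe sets). They were Cd5l (0.56), Mpeg1 (0.52), Marco (0.35) and Cd68 (0.31), all differences on the log2 scale. The study's own lists of changed genes, drawn from these same mice, included Cd5l, Marco, Cd68, Adgre1 and Ly86. The marker list was chosen with such results known, so these shares are not independent evidence. The median difference of the list was 0.26. None of the 16 passed an adjusted p of 0.05. Its 2 markers of highest mean level, Lyz2 and Cd5l, averaged 8.11 and 8.02 in HFM livers and 7.82 and 7.47 in HFS livers. The mean level over the 16 ran from 5.69 to 6.48 in HFM and from 5.46 to 6.30 in HFS livers, and Ccr2, a receptor of recruited monocytes, stood near the bottom of the scale at 2.86 and 2.82. In bulk tissue a change in the number of cells of one type and a change in RNA per cell cannot be told apart. Expressed relative to the mean of the 14 mice, the mean of the 3 C1q chains ran from -0.28 to 0.71 in HFM and from -0.44 to 0.43 in HFS livers. HFM mouse 2 had 0.71 for C1q and 0.59 for the markers, HFM mouse 6 had 0.61 and 0.40, and HFS mouse 5 had 0.43 and 0.42, so that the mice with high C1q were also those with high markers. The C1q mean less the marker mean was 0.04 ± 0.13 in HFM livers (SD, n = 7, range -0.15 to 0.21) and -0.04 ± 0.10 in HFS livers (SD, n = 7, range -0.20 to 0.08). With the marker mean of each mouse as a covariate in limma, the difference of C1qa was 0.03 (interval -0.13 to 0.18), that of C1qb 0.12 (interval -0.05 to 0.29) and that of C1qc -0.01 (interval -0.18 to 0.16). The part of cell number in these differences was not tested.

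**Figure D3:**
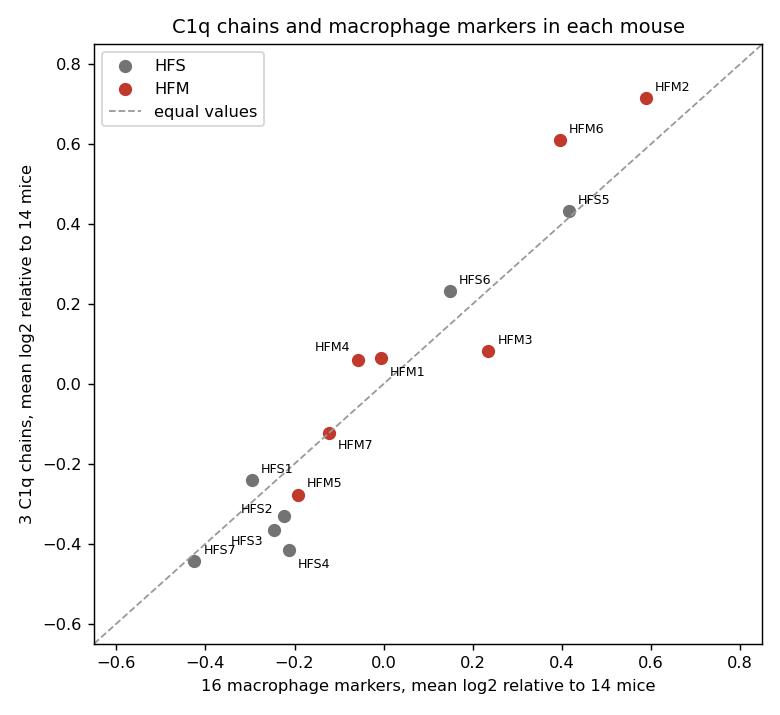
Mean of the 3 C1q chains (vertical axis) against the mean of 16 macrophage markers (horizontal axis) in each mouse, both in log2 units relative to the mean of the 14 mice, with a dashed line of equal values. HFM mice 2 and 6 and HFS mouse 5 lie at the upper right, and the points lie within 0.21 of the line.

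The 4 other genes expressed mainly by myeloid cells had a median difference of 0.18 and none reached an unadjusted p of 0.05. Cfp encodes properdin, which stabilizes the alternative pathway convertase. It ran from 5.94 to 7.14 in HFM and from 5.80 to 6.91 in HFS livers, a difference of 0.21 (SE 0.19, interval -0.19 to 0.61), which became -0.12 (interval -0.29 to 0.04) with the macrophage marker mean as a covariate. Fcna, a ficolin of liver macrophages that recognizes sugars for the lectin pathway, had a mean of 6.37 in both groups and a difference of 0.00 (interval -0.23 to 0.24). C3ar1 and C5ar1 encode the receptors of the peptides C3a and C5a. C3ar1 ran from 4.84 to 5.83 in HFM and from 4.91 to 5.92 in HFS livers, with a difference of 0.23 (SE 0.16, interval -0.11 to 0.56). Without HFM mouse 7 it was 0.33 (unadjusted limma p of 0.0381) and without HFS mouse 6 it was 0.35 (unadjusted limma p of 0.0209), the 2 of 14 fits without 1 mouse under 0.05. C5ar1 lay at 3.64 to 3.93 in HFM and 3.38 to 3.84 in HFS livers, a difference of 0.15 (SE 0.07, interval -0.00 to 0.31) with an exact permutation p of 0.0548. Its unadjusted limma p was 0.0569 with all mice and lay between 0.0270 and 0.0477 in the 5 fits without HFM mouse 1 or 6 or HFS mouse 1, 3 or 5. The groups overlapped for all 4 genes.

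Among the 19 hepatocyte components, 15 had a higher mean in HFM livers and 4 a lower one, where 51.4% of all probe sets had a higher mean. Their median difference was 0.11, with a range from -0.18 to 0.41. This median depended on the normalization, at 0.06 under quantile normalization and 0.13 with each array's median subtracted. The 4 called higher at an unadjusted limma p under 0.05 were C2, C4b, C9 and Clu (21.1%, against 3.57% of all probe sets). The list of hepatocyte markers gave the background of the cell type. Of its 12 genes 11 were measured and their median difference was 0.03. None had an unadjusted limma p under 0.05, whereas by the exact permutation test Alb was lower (difference -0.09, p = 0.00816, 0 of 7 HFM livers above the HFS mean) and Fah higher (0.12, p = 0.0396). That test called 3.41% of all probe sets higher at p under 0.05, and the share it called lower, which the call of Alb would need, was not counted. Adjusted over all probe sets, its p was 0.756 for Alb and 0.773 for Fah. The mean level over the list ran from 11.40 to 11.59 in HFM and from 11.44 to 11.56 in HFS livers. Alb and Apoa2, the 2 of highest mean level, stood at 13.43 and 13.39 in HFM livers and 13.52 and 13.36 in HFS livers, near the top of the scale.

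C4b and C2 encode the 2 substrates that C1s and MASP2 cleave to build the C3 convertase of the classical and lectin pathways. C4b ran from 9.86 to 10.24 with a median of 10.06 in HFM livers and from 9.35 to 10.15 with a median of 9.73 in HFS livers. All 7 HFM livers lay above the HFS mean, and 1 lay above every HFS liver. The means were 10.04 ± 0.13 and 9.73 ± 0.26 (SD, n = 7 each). Their difference was 0.31 (SE 0.10, interval 0.10 to 0.52), or 1.24-fold, with an unadjusted limma p of 0.00650, an adjusted p of 0.714 and an exact permutation p of 0.0181. C2 ran from 6.25 to 6.91 with a median of 6.73 in HFM and from 6.17 to 6.47 with a median of 6.31 in HFS livers. Here 5 HFM livers lay above every HFS liver and 1 lay below the HFS mean. The means were 6.62 ± 0.25 and 6.33 ± 0.12 (SD, n = 7 each). Their difference was 0.29 (SE 0.10, interval 0.09 to 0.50), or 1.22-fold, with an unadjusted limma p of 0.00794, an adjusted p of 0.714 and an exact permutation p of 0.0245. Both genes kept an unadjusted p under 0.05 in each of 14 fits without 1 mouse. With the macrophage marker mean as a covariate their differences were 0.18 for C4b (unadjusted limma p of 0.0450) and 0.22 for C2 (unadjusted limma p of 0.0431). C4a, a near-identical neighbour of C4b from the list of further complement genes, was higher by 0.24 (SE 0.10, unadjusted limma p = 0.0302, adjusted p = 0.768, exact permutation p = 0.0565), and its probes and those of C4b may not separate their transcripts.

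Cfb, which encodes factor B, the counterpart of C2 in the alternative pathway and its direct neighbour in the genome, ran from 10.21 to 10.67 in HFM and from 10.06 to 10.52 in HFS livers. The groups overlapped, and the difference of 0.15 (SE 0.09, interval -0.03 to 0.33) gave an exact permutation p of 0.125. Without HFM mouse 1, HFM mouse 5 or HFS mouse 5 its unadjusted limma p was 0.0490, 0.0392 and 0.0490, the 3 of 14 fits without 1 mouse under 0.05. The remaining proteases differed less. C1ra, whose product activates C1s, was lower on average by a difference of -0.11 (interval -0.36 to 0.14), Masp1 differed by 0.12 (interval -0.04 to 0.27) and Masp2 by 0.05 (interval -0.08 to 0.18). The mannose-binding lectins, which recognize microbial sugars, had differences of -0.03 for Mbl1 (interval -0.31 to 0.24) and -0.18 for Mbl2 (interval -0.47 to 0.11). Mbl2 ran from 8.03 to 9.09 in HFM and from 8.21 to 9.03 in HFS livers. HFM mouse 3 had the highest value of all, and without it the difference was -0.29 with an unadjusted limma p of 0.0204. That was the 1 of 14 fits without 1 mouse under 0.05 for Mbl2, and the largest p was 0.425.

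The terminal genes encode the parts of the membrane attack complex. C9, whose product forms the ring of the pore, was the 1 of 7 with an unadjusted limma p under 0.05 (14.3%, against 3.57% of all probe sets called higher). C9 ran from 9.45 to 10.12 with a median of 9.85 in HFM and from 8.90 to 10.37 with a median of 9.50 in HFS livers. All 7 HFM livers lay above the HFS mean, but the highest value of the 14 belonged to HFS mouse 5, so that no HFM liver lay above every HFS liver. The means were 9.81 ± 0.25 and 9.40 ± 0.52 (SD, n = 7 each). The difference was 0.41 (SE 0.18, interval 0.03 to 0.79), or 1.33-fold, with an unadjusted limma p of 0.0361, an adjusted p of 0.770 and an exact permutation p of 0.0839. Without HFS mouse 5 it was 0.57 (unadjusted limma p of 0.000511). It kept an unadjusted p under 0.05 in 7 of 14 fits without 1 mouse. The p lay between 0.0529 and 0.0870 in the fits without HFM mouse 4, 5, 6 or 7 or HFS mouse 2, 3 or 4, and the difference was 0.29 (interval -0.11 to 0.69) with the macrophage marker mean as a covariate.

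C6, C8a and C8b varied between mice of one group far more than they differed between groups. C6, whose product binds C5b to open the assembly, was at 8.20, 8.17 and 7.86 in HFS mice 4, 5 and 3, and at 7.13, 6.69, 6.57 and 6.17 in HFS mice 1, 7, 2 and 6. The HFM livers lay inside this span, from 6.82 to 7.76. The 14 mice covered 4.08-fold, the SD within groups was 0.65, above that of 99.8% of genes, and the difference between groups was 0.06 (SE 0.28, interval -0.54 to 0.66, exact permutation p = 0.860). C8a and C8b are adjacent genes for chains of C8, and they covered 2.64-fold and 3.15-fold over the 14 mice. C8a ran from 8.24 to 9.65 in HFS and from 8.76 to 9.53 in HFM livers, with a difference of 0.17 (interval -0.23 to 0.57). C8b ran from 7.66 to 9.31 in HFS and from 8.11 to 8.93 in HFM livers, with a difference of -0.08 (interval -0.54 to 0.38). HFS mouse 4 was the highest of all mice for all 3 genes. The SD of HFS livers was 0.82 for C6, 0.55 for C8a and 0.61 for C8b, against 0.40, 0.27 and 0.35 in HFM livers, a comparison of spreads that was not tested. C8g, the gene of the third C8 chain, had an SD within groups of 0.15 and a difference of 0.14 (interval -0.02 to 0.31). Its unadjusted limma p was 0.0237 without HFM mouse 1 and 0.0380 without HFS mouse 1, the 2 of 14 fits without 1 mouse under 0.05. Hc, the gene of C5, ran from 9.89 to 10.43 in HFM and from 9.88 to 10.51 in HFS livers with a difference of 0.08 (SE 0.10, interval -0.13 to 0.29, exact permutation p = 0.462). C7, which is made largely outside hepatocytes, was low on these arrays at 3.45 ± 0.16 in HFM and 3.59 ± 0.14 in HFS livers (SD, n = 7 each). Its difference was -0.15 (interval -0.31 to 0.02), and without HFM mouse 6 it was -0.18 with an unadjusted limma p of 0.0331. That was the 1 of 14 fits without 1 mouse under 0.05 for C7.

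**Figure D4:**
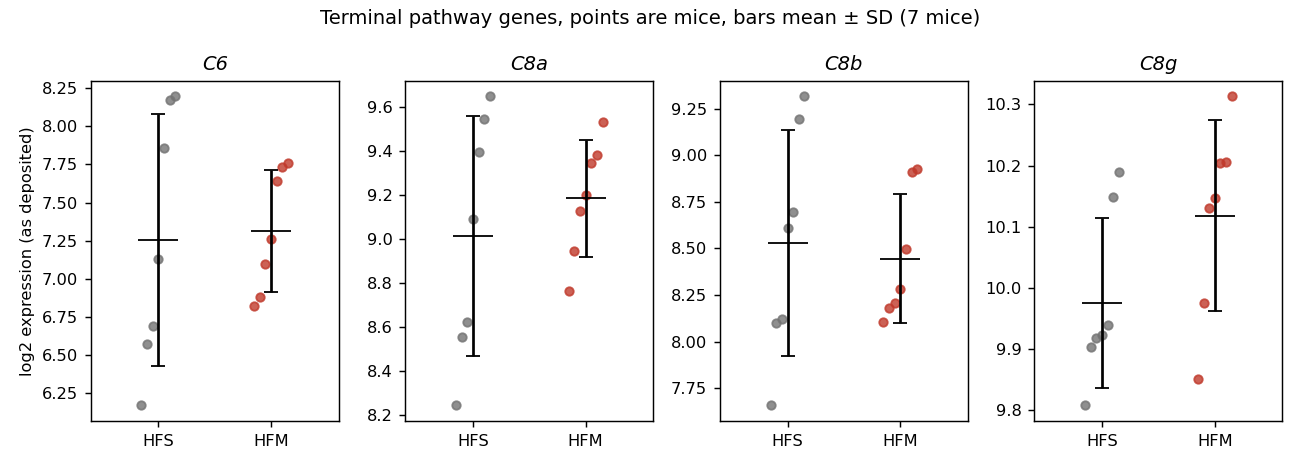
Log2 expression of C6, C8a, C8b and C8g (vertical axes) in each of 7 HFS and 7 HFM livers (points), with group means and SD as lines and bars. For C6, C8a and C8b the HFS livers spread over a wider range than the HFM livers, and HFS mouse 4 is the highest.

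Of the 6 regulators secreted into fluid, all had a higher mean in HFM livers, against 51.4% of all probe sets, with a median difference of 0.12. Clu alone had an unadjusted limma p under 0.05 (16.7% of the 6, against 3.57% of all probe sets called higher). Clu encodes clusterin, a chaperone that binds the forming membrane attack complex and keeps it from membranes. It ran from 11.14 to 11.37 with a median of 11.28 in HFM and from 10.90 to 11.24 with a median of 10.99 in HFS livers. All 7 HFM livers lay above the HFS mean and 5 lay above every HFS liver. The means were 11.27 ± 0.09 and 11.04 ± 0.11 (SD, n = 7 each). The difference of 0.23 (SE 0.06, interval 0.10 to 0.37), or 1.18-fold, had the smallest p of the 31 genes, with an unadjusted limma p of 0.00179, an adjusted p of 0.714 and an exact permutation p of 0.00291. It kept an unadjusted p under 0.05 in each of 14 fits without 1 mouse and with the macrophage marker mean as a covariate (difference 0.18, unadjusted limma p of 0.0120). Its fold change was under the 1.2-fold limit.

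Vtn encodes vitronectin, which also binds the forming complex, and its difference was 0.14 (SE 0.07, interval -0.02 to 0.29, exact permutation p = 0.0647). It ran from 11.62 to 11.99 in HFM and from 11.37 to 11.79 in HFS livers, so the groups overlapped. Its unadjusted limma p was 0.0453, 0.0401 and 0.0443 without HFM mouse 1, HFM mouse 5 and HFS mouse 4, the 3 of 14 fits without 1 mouse under 0.05. Serping1, the gene of the C1 inhibitor, had a difference of 0.11 (interval -0.05 to 0.27). Its unadjusted limma p was 0.0349 without HFS mouse 5, the 1 of 14 fits without 1 mouse under 0.05. Cfi, the gene of factor I, which cleaves C3b and C4b, differed by 0.05 (interval -0.15 to 0.24). C4bp, whose product is the cofactor of factor I for C4b, differed by 0.01 (interval -0.19 to 0.20). On cell membranes, Cd55 and Cd46 act on C3b and C4b and Cd59a blocks C9. Their differences were -0.06 for Cd55 (interval -0.33 to 0.21), 0.05 for Cd46 (interval -0.07 to 0.18) and 0.15 for Cd59a (interval -0.04 to 0.34). Without HFM mouse 7 that of Cd59a was 0.22 with an unadjusted limma p of 0.00824, the 1 of 14 fits without 1 mouse under 0.05 for Cd59a. Cd46, a gene expressed mainly in the testis of mice, lay between 2.42 and 2.73 in all 14 livers, close to the bottom of the scale.

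Colec11 encodes collectin-11, which recognizes sugars for the lectin pathway and is made by several cell types of the liver and kidney. It ran from 6.45 to 7.02 with a median of 6.76 in HFM and from 6.41 to 6.67 with a median of 6.49 in HFS livers. Of the HFM livers 6 lay above the HFS mean and 5 above every HFS liver. The means were 6.74 ± 0.18 and 6.52 ± 0.08 (SD, n = 7 each). The difference was 0.22 (SE 0.08, interval 0.06 to 0.38), or 1.17-fold, with an unadjusted limma p of 0.00905, an adjusted p of 0.726 and an exact permutation p of 0.0111. An unadjusted p under 0.05 was kept in each of 14 fits without 1 mouse. Markers of stellate cells stood beside this result with 9 of 10 above 0 (90%, against 51.4% of all probe sets) and a median difference of 0.15. At an unadjusted limma p under 0.05, 1 was higher (Pdgfrb, 0.22), which is 10%, against 3.57% of all probe sets. The mean level of the stellate markers ran from 5.97 to 6.29 in HFM and from 5.91 to 6.14 in HFS livers. The 2 stellate markers of highest level, Dcn and Reln, averaged 9.67 and 7.00 in HFM and 9.47 and 6.81 in HFS livers. The part of these cells in the difference of Colec11 was not tested.

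**Figure D5:**
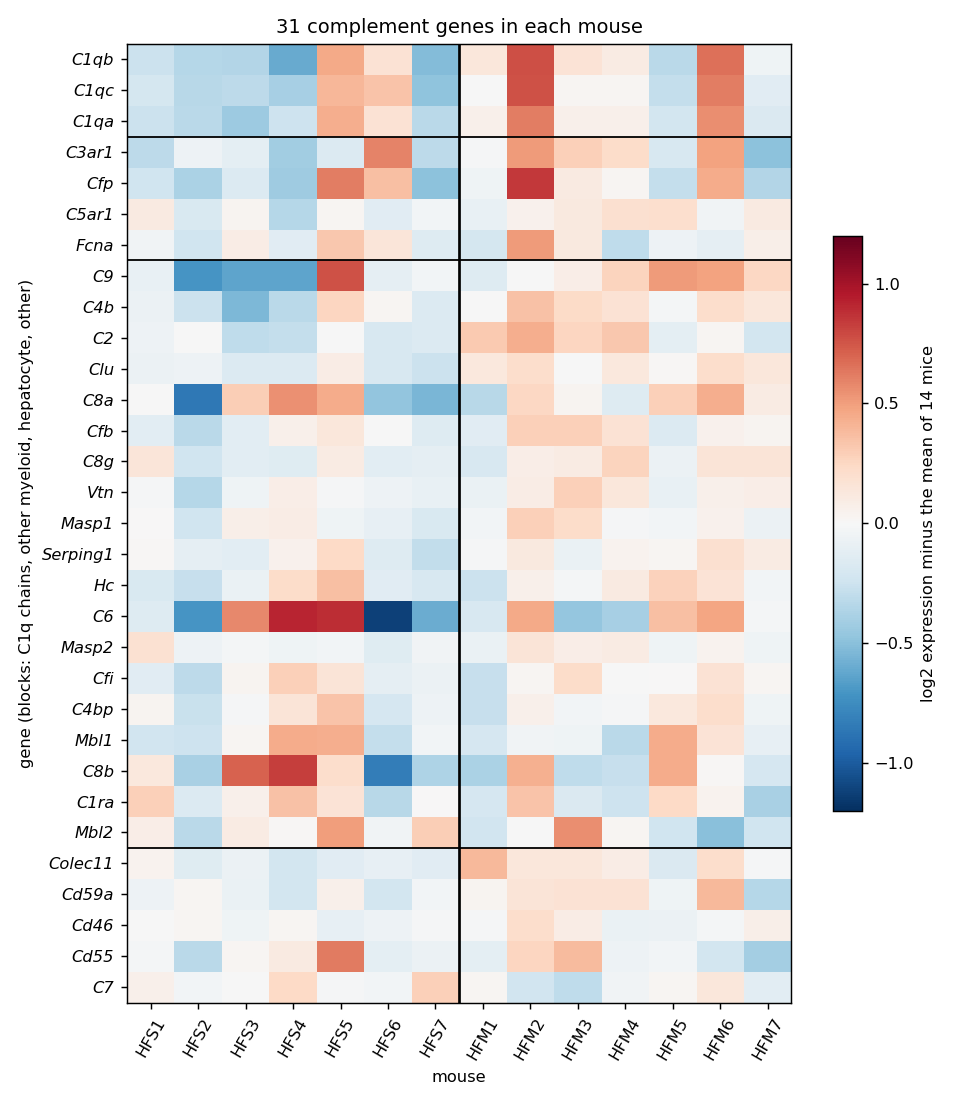
Log2 expression of the 31 complement genes (rows, in groups by main source) in each of the 14 mice (columns), relative to the mean of the 14 mice, on a colour scale in log2 units. HFM mice 2 and 6 and HFS mouse 5 are high for the C1q chains, and HFS mouse 4 is high for C6, C8a and C8b.

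A list of 30 further complement genes, receptors and relatives gave 23 with a probe set of their own. Of these 10 were above 0 and 13 below, the median difference was -0.01, and at an unadjusted limma p under 0.05, 2 were higher (8.7%, against 3.57% of all probe sets), 1 was lower (4.35%, against 2.9%) and 20 were neither, counts near the background. Besides C4a, the higher one was Itgb2, the beta chain of complement receptors 3 and 4 on leukocytes, with a difference of 0.34 (SE 0.13, unadjusted limma p = 0.0174, exact permutation p = 0.0408). The lower one was C5ar2, a second receptor of C5a, with a difference of -0.13 (SE 0.06, unadjusted limma p = 0.0403, exact permutation p = 0.0134). None of the 3 passed an adjusted p of 0.05. Vsig4, a complement receptor of Kupffer cells chosen here after its values were seen, differed by 0.12 with an SD of 0.62 in HFM and 0.63 in HFS livers and an unadjusted limma p of 0.673.

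HFS mouse 5 was the highest HFS mouse for 15 of the 31 complement genes, a count that was not compared with all probe sets. It also stood high for other genes of the acute phase response, in which hepatocytes raise the output of plasma proteins during inflammation. Over 21 acute phase genes, 19 were above 0 (90.5%, against 51.4% of all probe sets), with a median difference of 0.27. At an unadjusted limma p under 0.05, 10 were higher in HFM livers (47.6%, against 3.57%). By the exact permutation test 7 were, against 3.41% of all probe sets. The study's own lists of changed genes, drawn from these same mice, included Saa1, Saa3, Lcn2, Orm1, Hp and Hpx. The acute phase list was chosen with such results known, so these shares are not independent evidence. The mean level of the list ran from 9.92 to 10.40 in HFM and from 9.27 to 10.51 in HFS livers, where the highest value was that of HFS mouse 5. Its 2 genes of highest mean level, Hpx and Hp, averaged 12.55 and 12.52 in HFM and 12.26 and 12.26 in HFS livers. By the same limma threshold for calls, other cell types showed smaller median differences, of 0.11 for 10 neutrophil markers (1 higher, Cxcr2), 0.01 for 10 sinusoidal endothelial markers (1 higher, Stab1), 0.03 for 10 adipocyte markers (2 higher, Cidec and Fabp4), 0.01 for 9 lymphocyte markers (1 lower, Cd79a) and 0.06 for 2 blood markers (none called). Of all probe sets 3.57% were called higher and 2.9% lower. The 2 markers of highest mean level in each of these lists were S100a9 and Camp (differences 0.28 and -0.05), Fcgr2b and Clec4g (-0.07 and -0.08), Pck1 and Cidec (-0.08 and 0.59), Cd3e and Ighm (0.01 and 0.03), and Alas2 and Slc4a1 (0.18 and -0.06). In neutrophil markers HFM mouse 2 stood apart with a mean level of 4.83, against 3.49 to 3.63 in the other HFM livers and 3.44 to 4.04 in HFS livers. Cxcr2 lay near the bottom of the scale, with means of 2.89 in HFM and 2.66 in HFS livers. Between arrays the correlation of log2 values was 0.979 to 0.995 and array medians ran from 4.59 to 4.69, and no scan date or batch was given in the sources used here.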

How the data were processed

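Total RNA from flash-frozen liver of 14 mice was hybridized by the authors to Affymetrix mouse gene arrays, 1 mouse per array, and the log2 values deposited for each probe set had been summarized and normalized between arrays in Affymetrix Expression Console. The labels name RMA and the study's methods name PLIER, and the sources used here give no version, probe annotation or genome build. The number of arrays limits the precision. Groups were taken from the labels, and 0 value columns were left out. GEO's annotation named the probe sets. Of 35556, those carrying any gene symbol entered the fit (23410, of which 21789 had 1 and 1621 several), and 12146 were left out. All 31 measured members were found in the RefSeq table by gene ID, which changed 0 symbols. The authors tested in Partek, with a Bonferroni correction. R 4.3.3 and limma 3.58.1 (lmFit, eBayes) gave HFM minus HFS with no covariate, 95% intervals and Benjamini-Hochberg adjusted p values over all tested probe sets. Exact permutation tests were two-sided over all 3432 assignments of mice, where the smallest possible p is 0.000583. The fit was tested on simulated data.

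The members, lists and motifs were chosen with earlier results of these data known. Every measured member is named. Those given in full have an unadjusted p under 0.05 or are the C1q chains, C4b, Cfb, Hc and C9. Also named are the further complement genes at that threshold, the 2 marker genes of highest mean level per list and any that a result turns on. Alternatives were quantile normalization, median centring, only probe sets brighter than the median, all probe sets, 1 probe set or the mean per gene, array weights, another prior, an unmoderated test, Bonferroni, the replicate number as a block, macrophage markers as a covariate, no fold filter and leaving out each mouse.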

Additional observations from a re-analysis of the deposited data

Results flagged for a closer look

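In 3 of 66 groups of values checked (4.55%), 1 mouse stood apart from the others of its group by Dixon's criterion, a share close to the 1 in 20 that chance gives. The 66 were the HFM and HFS values of the 31 complement genes and of 2 list means. Masp2, the gene of the lectin pathway protease that cleaves C4 and C2, was 9.62 in HFS mouse 1, where the next HFS liver had 9.42. C3ar1, the receptor of C3a, was 5.92 in HFS mouse 6, where the next had 5.26. Vtn, the gene of vitronectin, was 11.37 in HFS mouse 2, where the next had 11.62.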

How the results depend on the processing

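The precision is limited by 7 mice per group and by signal below the median of all probe sets for Cd46, C7 and C5ar1, and the expression of C3 and Cfd was not analysed here. None of the 31 genes passed an adjusted p of 0.05 under any alternative run, Bonferroni included. Of 338 values of single genes under the alternatives that kept all mice, 316 kept direction and side of the threshold of an unadjusted p of 0.05, 7 lost it, 4 gained it and 11 changed sign. The sign changes were C4bp at -0.028 and Fcna at -0.041 under quantile normalization, C6 at -0.017, C4bp at -0.0077 and Fcna at -0.077 with array weights, and C1qc at -0.0084, C6 at -0.075, Cfi at -0.0045, Cfp at -0.12, C4bp at -0.051 and Fcna at -0.13 with the macrophage covariate. C2, C4b, Clu and Colec11 stayed called in all of these fits. C9 was lost under quantile normalization, with all probe sets and with a trended robust prior. C1qb and C9 were lost in the unmoderated test and with the macrophage covariate. The share of all probe sets called higher was 3.27% in the unmoderated test and 1.72% with the covariate, against 3.57% in the main fit, so calls fell over the whole series too. The cause of these losses was not tested. The count of genes higher at that threshold, 6, was 4 to 7 over these alternatives, where 1.72% to 5.25% of all probe sets were higher. It was 5 to 11 without 1 mouse, where 2.49% to 5.4% were. The count lower, 0, was 0 to 1 without 1 mouse, where 2.13% to 5.25% of all probe sets were lower. The 2 genes past p under 0.01 with 1.2-fold became 0 under quantile normalization, in the unmoderated test and with the macrophage covariate, 1 with all probe sets and 4 without the fold filter. Without 1 mouse that count was 0 to 5, with 0 without HFM mouse 2, 3 or 4 or HFS mouse 3, 4 or 7, and 4 without HFM mouse 5 and 5 without HFS mouse 5. Without 1 mouse the sign turned for C6 (-0.12 to 0.22), C8b (-0.23 to 0.048), Cfi (-0.0026 to 0.097), C4bp (-0.039 to 0.063), Mbl1 (-0.11 to 0.040), Fcna (-0.080 to 0.058) and Cd55 (-0.13 to 0.039), and none of these was called. With each array's median subtracted, 1229 of all probe sets were higher and 428 lower at an unadjusted p under 0.05, against 836 and 678 as deposited, which moved the median difference to 0.03. Mice with the same replicate number correlated from -0.20 to 0.14 in their deviations, so the numbers were not taken as pairs. With the replicate block 7 genes were called higher, the 6 and C3ar1, against 3.13% of all probe sets.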
